A study of Homo sapiens with 12 samples.

Results

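Chemokines are small secreted proteins that attract white blood cells, and 8 genes of the CXC and CC families were followed here: CXCL1, CXCL2, CXCL3, CXCL5, CXCL6, CXCL8, CCL2 and CCL20. They were chosen by name and are 8 of the 25435 gene symbols in the count table. CXCL8 encodes interleukin 8. RNA was sequenced from LMSU, a gastric cancer cell line whose p53 carries the R175H substitution according to the labels. There were 12 libraries in 6 groups of 2. The culture medium was Ham's F-10 for all groups.

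The knockout arm had no doxycycline. It held the knockout control, labelled GFP_V2 and as carrying mutant p53, and the p53 knockout, labelled GFP_sg-1 and as lacking it. The knockdown arm was labelled with doxycycline throughout. Its scramble hairpin and its vector were labelled as carrying mutant p53, and shRNA 1 and shRNA 2, hairpins against p53, as lacking it. Nothing in the labels says whether the knockout is 1 clone, or whether a group's 2 libraries are separate cultures, so p-values measure only the spread between these libraries, which may be technical. Total counts ranged from 9738094 to 16823246 per library.

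Several defining markers of epithelium and stomach were near 0. EPCAM and CDH1 each had 0 to 2 counts per library and KRT19 had 0 to 4, whereas 4 of 7 epithelial markers passed the filter on low counts, the keratins KRT8 and KRT18 and the claudins CLDN4 (6 to 19 counts) and CLDN7 (14 to 59). The summed epithelial level was 252 to 462 CPM (counts scaled to a common library total), and 0 of 6 matched gastric markers passed. Fibroblast markers were high, with 7 of 7 passing; their summed level was 2662 to 3454 CPM in the knockout arm and 14880 to 18610 CPM in the knockdown arm. Of 8 leukocyte markers 2 passed, CSF1R (15 to 62 counts) and ITGAX (1 to 35), while PTPRC and CD14 had at most 3 and 2 counts in a library; of 5 endothelial markers 1 passed, PECAM1 (4 to 15 counts), and CDH5 and TEK had 0.

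In epithelial and stromal cells, CXC chemokines are made in response to interleukin 1 and tumour necrosis factor, whose signals free the transcription factor NF-kB to enter the nucleus. CXCL1, CXCL2, CXCL3, CXCL5, CXCL6 and CXCL8 draw neutrophils through the receptor CXCR2, and CXCL8 and CXCL6 also act on CXCR1. CCL2 draws monocytes through CCR2, and CCL20 draws lymphocytes and immature dendritic cells through CCR6.

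All 6 CXC genes lie in one cluster on chromosome 4, whereas CCL20 lies on chromosome 2 and CCL2 on chromosome 17. Promoter sequence from RefSeq (GRCh38.p14) was matched by symbol for 7 of the 8 genes; CCL2 was not matched. The 150 bases before the start of 4 genes are shown, 5′ to 3′ on the gene's strand: CXCL1, CXCL5 and CXCL8 because their levels were high, and CXCL6, chosen after its values were seen, because it had almost no counts. Capitals mark matches on either strand to the NF-kB letters GGNNNTTCC, the AP-1 letters TGANTCA or the TATA box letters TATAAA.
CXCL8, chr4:73740419-73740568, plus strand: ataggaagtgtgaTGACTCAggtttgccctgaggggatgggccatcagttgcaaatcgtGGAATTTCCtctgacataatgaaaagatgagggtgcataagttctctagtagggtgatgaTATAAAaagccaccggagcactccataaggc
CXCL1, chr4:73869243-73869392, plus strand: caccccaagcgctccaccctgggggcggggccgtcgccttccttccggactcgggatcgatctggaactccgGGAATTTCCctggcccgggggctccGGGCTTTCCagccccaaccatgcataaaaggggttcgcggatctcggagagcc
CXCL5, chr4:73998678-73998827, minus strand: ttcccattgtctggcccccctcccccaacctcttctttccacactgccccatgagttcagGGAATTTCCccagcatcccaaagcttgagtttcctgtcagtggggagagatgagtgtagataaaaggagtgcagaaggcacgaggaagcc
CXCL6, chr4:73836528-73836677, plus strand: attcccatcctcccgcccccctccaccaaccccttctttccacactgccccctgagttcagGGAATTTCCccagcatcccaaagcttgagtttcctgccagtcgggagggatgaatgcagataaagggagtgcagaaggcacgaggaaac

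The same 9 letters, GGAATTTCC, stood in all 6 CXC promoters. In the 250 bases searched, GGNNNTTCC occurred in 17.1% of 35116 RefSeq promoters, and in CCL20 it was found on the minus strand. CXCL1, CXCL2 and CXCL3 each held a second match, GGGCTTTCC, at positions -53 to -45 from the start. TGANTCA, found in 6.57% of promoters, occurred among these genes in CXCL8 alone, at -137 to -131. TATAAA, found in 10.7%, occurred in CXCL8 and CCL20. No pair of these motifs overlapped in the printed sequences. The CXCL5 and CXCL6 windows were 89.4% identical, and CXCL1 was 88.8% identical to CXCL2 and 88.1% to CXCL3. A match describes letters and is not a measured binding site.

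Of the 8 genes, 6 passed the filter and 2 lay below it. CXCL6 had 3 counts over all 12 libraries, 1 each in 3 of them, so its row was near 0 although its promoter window closely resembles that of CXCL5. CCL2 had 35 counts in all: the knockout control had 4 and 4, the knockout 3 and 2, scramble 1 and 10, shRNA 1 had 1 and 3, shRNA 2 had 2 and 3, and vector 0 and 2. A count of 0 allows a level of up to 3 counts, which is 0.186 to 0.321 CPM depending on the library, for counting error only. Neither gene was tested, and differences between groups were not detectable at this depth.

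The other 6 genes had counts in every library, and all 6 stood higher in each library of the knockout arm than in each library of the knockdown arm. Differences between the arms were common: 33.1% of all tested genes were called higher in the knockout control than in scramble, and 64.6% in either direction. For CCL20 the gap was narrow, and it did not pass in that comparison (adjusted p 0.0643 by edgeR). Levels are in CPM after TMM normalisation, which corrects library totals for differences in composition.

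CXCL8 had 871 and 1188 CPM in the knockout control libraries and 1051 and 1090 CPM in those of the knockout. The scramble libraries had 182 and 184 CPM, those of shRNA 1 had 91.7 and 87.9 CPM, those of shRNA 2 had 239 and 237 CPM, and vector had 43.4 and 45.5 CPM. The 2 groups of the knockout arm overlapped, whereas the 4 groups of the knockdown arm were separate, in the order vector, shRNA 1, scramble, shRNA 2.

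CXCL1, a neutrophil attractant first known as a melanoma growth factor, had 604 and 539 CPM in the knockout control libraries and 572 and 640 CPM in those of the knockout. In the knockdown arm scramble had 19.6 and 18.9 CPM, shRNA 1 had 14.6 and 15.0 CPM, shRNA 2 had 18.1 and 21.1 CPM, and vector had 7.39 and 7.54 CPM. Scramble and shRNA 2 overlapped, shRNA 1 lay below both, and vector was lowest.

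CXCL5 had 583 and 824 CPM in the knockout control libraries and 770 and 765 CPM in those of the knockout. The scramble libraries had 89.9 and 97.0 CPM, those of shRNA 1 had 74.3 and 73.5 CPM, those of shRNA 2 had 78.6 and 77.6 CPM, and vector had 31.5 and 34.1 CPM. Both hairpins against p53 lay below scramble and far above vector.

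CXCL3 and CXCL2, close relatives of CXCL1, were lower. For CXCL3 the knockout control had 97.5 and 90.6 CPM, the knockout 86.8 and 101.7 CPM, scramble 9.78 and 7.26 CPM, shRNA 1 had 5.03 and 5.78 CPM, shRNA 2 had 8.59 and 8.31 CPM, and vector 3.39 and 3.59 CPM. For CXCL2 the knockout control had 47.6 and 46.1 CPM, the knockout 47.0 and 51.1 CPM, and scramble and both hairpin groups 5.12 to 6.96 CPM. In vector CXCL2 was 2.64 and 2.72 CPM, below every other library. Of 50-base windows in the transcripts, 5.73% of CXCL1, 9.24% of CXCL2 and 5.26% of CXCL3 occur in another of the 8 genes, so reads there could be split between them and these 3 rows are uncertain to that extent.

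CCL20 was the least abundant of the tested genes, with 3 to 49 counts per library. The knockout control had 3.41 and 2.04 CPM, the knockout 3.41 and 3.32 CPM, scramble and both hairpin groups 1.31 to 1.78 CPM, and vector 0.528 and 0.186 CPM. The vector libraries, at 7 and 3 counts, were the lowest, and the lower of them equals the floor.

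**Figure D1:**
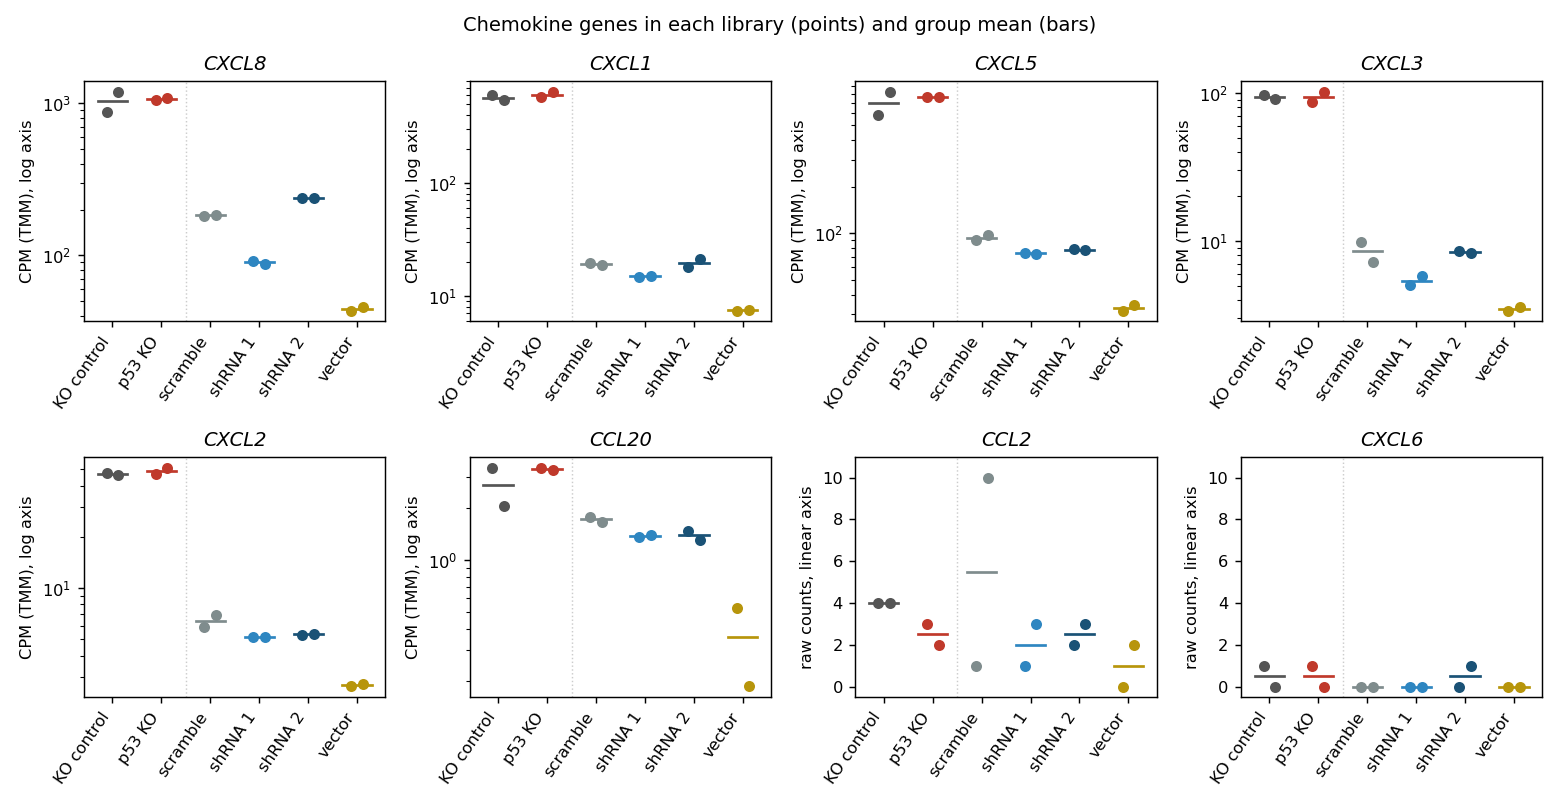
Level of each chemokine gene in each library, in CPM on a log axis for the 6 tested genes and in raw counts on a linear axis for CCL2 and CXCL6; points are libraries, bars are group means, and the dotted line divides the knockout arm from the knockdown arm. CXCL8 lies between 871 and 1188 CPM in the 4 libraries of the knockout arm and between 43.4 and 239 CPM in the 8 of the knockdown arm.

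Divided by exon length (GENCODE 29), the genes can be compared with each other. In the knockout control CXCL1 reached 521 ± 42.1 CPM per kilobase (SD, n = 2) and CXCL8 514 ± 112, which do not differ beyond their spread, followed by CXCL5 at 277 ± 67.2, CXCL3 at 87.5 ± 4.54, CXCL2 at 38.5 ± 0.841 and CCL20 at 3.24 ± 1.15. In scramble the order was CXCL8 at 91.3 ± 0.647 CPM per kilobase, CXCL5 at 36.8 ± 1.98, CXCL1 at 17.5 ± 0.454, CXCL3 at 7.93 ± 1.66, CXCL2 at 5.28 ± 0.615 and CCL20 at 2.03 ± 0.111. CXCL1 therefore ranked beside CXCL8 in the knockout arm and below CXCL5 in the knockdown arm. Lengths were taken from this annotation, and which annotation the authors counted on is not given in the sources used here.

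The balance between CXCL8 and CXCL1 also differed between the arms. The ratio of CXCL8 to CXCL1 counts ranged from 1.44 to 2.20 over the 4 libraries of the knockout arm and from 5.86 to 13.2 over the 8 of the knockdown arm. Within the knockdown arm shRNA 2 had ratios of 13.2 and 11.3, scramble 9.30 and 9.75, shRNA 1 had 6.26 and 5.86, and vector 5.87 and 6.03, so that shRNA 1 and vector overlapped. The ratio of CXCL8 to CXCL5 overlapped between the arms, at 1.366 to 1.495 in the knockout arm and 1.197 to 3.058 in the knockdown arm. So did its ratio to CXCL2 (18.3 to 25.8 and 16.4 to 44.9) and to CXCL3 (8.94 to 13.1 and 12.7 to 28.6). Its ratio to the scarce CCL20 did not overlap (256 to 582 and 63.2 to 245).

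**Figure D2:**
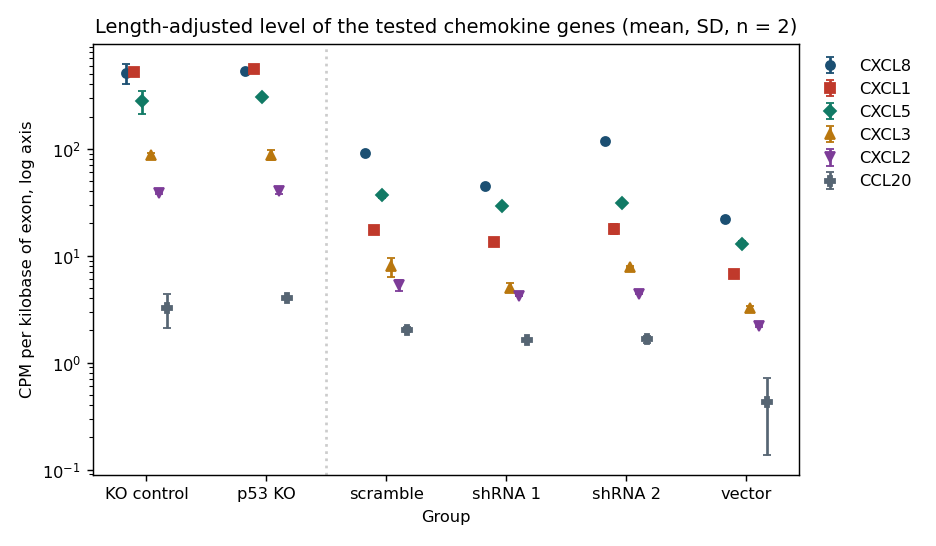
Level of the 6 tested genes per kilobase of exon in each group, on a log axis; symbols are means and bars are SD over 2 libraries. CXCL1 lies beside CXCL8 in the knockout arm (521 and 514 CPM per kilobase in the knockout control) and below CXCL8 and CXCL5 in scramble (17.5 CPM per kilobase).

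The knockout comparison asks what differs with the construct that targets p53. No chemokine gene passed: 0 of 6 tested were called by edgeR's quasi-likelihood test with Benjamini-Hochberg adjustment, 0 had an unadjusted p below 0.05, and DESeq2 also called 0. In the same comparison 0.015% of all 13365 tested genes passed. CXCL8 had a log2 fold change of 0.06 (95% interval -0.20 to 0.31), CXCL1 of 0.08 (-0.12 to 0.29), CXCL5 of 0.13 (-0.15 to 0.41), CXCL2 of 0.07 (-0.15 to 0.28), CXCL3 of 0.00 (-0.26 to 0.26) and CCL20 of 0.28 (-0.31 to 0.86). The median over the 6 was 0.08, beside -0.01 over all tested genes. In bulk RNA, fewer cells expressing a chemokine and less RNA per cell cannot be told apart, here and in the comparisons that follow.

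The 2 knockout control libraries stood apart from each other, with a chi-square of their counts per degree of freedom of 32.6. It was 9.57 in the knockout and 1.54 to 2.25 within the knockdown groups. Between-library variation beyond counting error was 15.6% in the knockout arm fitted alone, 3.08% in the knockdown arm alone and 9.55% in the full fit. Intervals come from the full fit, so they may be too narrow in the knockout arm and too wide in the knockdown arm. Without knockout control replicate 2, CXCL5 (0.40, adjusted p 0.00155) and CXCL8 (0.29, adjusted p 0.00499) passed the edgeR test as higher in the knockout, in a fit where the lone control library is assumed to vary like the other groups. In that fit 4135 genes were called over the whole table, against 2 with all libraries. Without replicate 1 both values were below 0, at -0.10 and -0.15.

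The knockdown comparisons with scramble ask what differs with a hairpin against p53. With shRNA 1, CXCL8 fell to 89.8 ± 2.64 CPM from 183 ± 1.30 CPM in scramble (SD, n = 2), 2.04-fold lower, and CXCL3 fell to 5.41 ± 0.531 CPM from 8.52 ± 1.78 CPM, 1.58-fold lower. These were 2 of the 6 tested genes, and in this comparison 9.41% of all tested genes were called, and 5.01% were called lower. The log2 fold changes were -1.03 for CXCL8 (SE 0.12, adjusted p 5.83e-04 by edgeR) and -0.66 for CXCL3 (SE 0.18, adjusted p 0.0416 by edgeR). All 6 genes had both shRNA 1 libraries below both scramble libraries. How many of all tested genes share this pattern was not counted, so no conclusion is drawn from it. The other 4 did not pass edgeR's test. CXCL1 was at -0.37 (adjusted p 0.0707) and CXCL5 at -0.34 (adjusted p 0.153). CXCL2 was at -0.33 (adjusted p 0.247) and CCL20 at -0.32 (adjusted p 0.667). The median of the 6 was -0.36, beside 0.00 over all tested genes. The CXCL3 call was lost when scramble replicate 1 (-0.43) or either shRNA 1 library (-0.56 without replicate 1, -0.75 without replicate 2) was left out. It was also lost with the replicate number as a block (-0.66, adjusted p 0.0652 by edgeR). The fit to the 8 knockdown libraries alone called 4 chemokine genes, adding CXCL1 and CXCL5. Over the whole table that fit called 4304 genes, where 1258 were called in the full fit.

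With shRNA 2, no chemokine gene passed against the same scramble libraries: 0 of 6 by edgeR's quasi-likelihood test and 0 by DESeq2, beside 7.74% of all tested genes. One gene had an unadjusted p below 0.05. That gene was CXCL8, which was higher in both shRNA 2 libraries (238 ± 0.989 CPM, n = 2) than in both scramble libraries, with a log2 fold change of 0.38 (95% interval 0.12 to 0.64, adjusted p 0.0788 by edgeR). CXCL5 had a value of -0.26 (-0.55 to 0.04), CXCL2 of -0.27 (-0.60 to 0.07), CCL20 of -0.30 (-1.06 to 0.46), CXCL1 of 0.03 (-0.22 to 0.27) and CXCL3 of -0.01 (-0.54 to 0.52). The median was -0.13, beside 0.00 over all tested genes. Fitted to the 8 knockdown libraries alone, CXCL8 (0.39) passed as higher and CXCL5 (-0.25) as lower. Over the whole table that fit called 4091 genes, where 1034 were called in the full fit.

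The 2 hairpins differed from each other at CXCL8. Tested directly, 3 of 6 genes were higher with shRNA 2 than with shRNA 1, beside 7.21% of all tested genes (14.3% in either direction): CXCL8 by 1.41 on the log2 scale (2.65-fold, SE 0.12, adjusted p 6.71e-05 by edgeR), CXCL3 by 0.65 (SE 0.18, adjusted p 0.0331) and CXCL1 by 0.40 (SE 0.12, adjusted p 0.0407). CXCL5 (0.08, 95% interval -0.22 to 0.38), CXCL2 (0.06, -0.34 to 0.46) and CCL20 (0.02, -0.82 to 0.86) did not pass. CXCL8 kept its call in each of the 4 fits that left out 1 library, at 1.37 to 1.44, and CXCL1 (0.28 to 0.50) and CXCL3 (0.54 to 0.74) lost theirs in each. With the replicate number as a block, 1 gene, CXCL8, was called.

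The vector control differed from all 3 hairpin groups, scramble included. Against vector, 6 of 6 tested genes were higher in scramble (beside 7.1% of all tested genes called higher and 15.3% in either direction), 6 of 6 with shRNA 2 (9.21% higher, 21% in either direction) and 5 of 6 with shRNA 1 (5.78% higher, 13% in either direction). These comparisons share the vector libraries, and both scramble and vector are labelled as carrying mutant p53. Some markers of other cell types were also higher than in vector. Of 7 fibroblast markers, 5 were called higher in each of the 3 hairpin groups and 1 was called lower with shRNA 2; DCN was higher by 2.22 and LUM by 1.44 in scramble (log2), though the summed level of the list was 14960 to 14990 CPM in vector, 15960 to 16740 CPM in scramble, 17290 to 18610 CPM with shRNA 1 and 14880 to 15300 CPM with shRNA 2. CSF1R was higher by 1.69 in scramble, 1.56 with shRNA 2 and 1.43 with shRNA 1, and PECAM1 by 1.34 in scramble. ITGAX, the other tested leukocyte marker, was at -0.31 in scramble, 0.09 with shRNA 1 and -1.01 with shRNA 2 (adjusted p 0.0357 by edgeR). The part of these markers in the chemokine differences was not tested.

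CXCL8 was 4.11-fold higher in scramble than in vector (log2 2.04, SE 0.13, adjusted p 2.97e-06 by edgeR), 5.36-fold higher with shRNA 2 (log2 2.42, SE 0.13, adjusted p 5.71e-07) and 2.02-fold higher with shRNA 1 (log2 1.01, SE 0.13, adjusted p 4.68e-04). For CXCL5 the log2 values were 1.51 in scramble, 1.25 with shRNA 2 and 1.17 with shRNA 1, and for CXCL1 they were 1.36, 1.39 and 0.99. For CXCL2 they were 1.26, 0.99 and 0.93, and for CXCL3 they were 1.28, 1.27 and 0.62, the last of these being the value that did not pass (adjusted p 0.0634 by edgeR). For every tested CXC gene, each hairpin group had its libraries above both vector libraries. How many of all tested genes share this pattern was not counted, and the comparisons use the same vector libraries. No conclusion is drawn from it.

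CCL20 had log2 values of 2.30 in scramble (SE 0.45), 2.0 with shRNA 2 (SE 0.47) and 1.98 with shRNA 1 (SE 0.49), all called by edgeR. These rest on 10 counts over the vector libraries. Without vector replicate 2 none was called, at 1.68, 1.38 and 1.36, and the calls were also lost without shRNA 2 replicate 1 (1.91) and without either shRNA 1 library (2.0 without replicate 1 and 1.96 without replicate 2).

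For shRNA 1 the sign of the CXCL8 effect therefore depended on the control, being 2.04-fold lower than scramble and 2.02-fold higher than vector. With shRNA 2 CXCL8 was above 0 against both, at 0.38 against scramble (not called) and 2.42 against vector (log2). The median of the 6 genes was 1.0 for shRNA 1, 1.33 for shRNA 2 and 1.44 for scramble against vector, beside 0.00 over all tested genes in each.

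**Figure D3:**
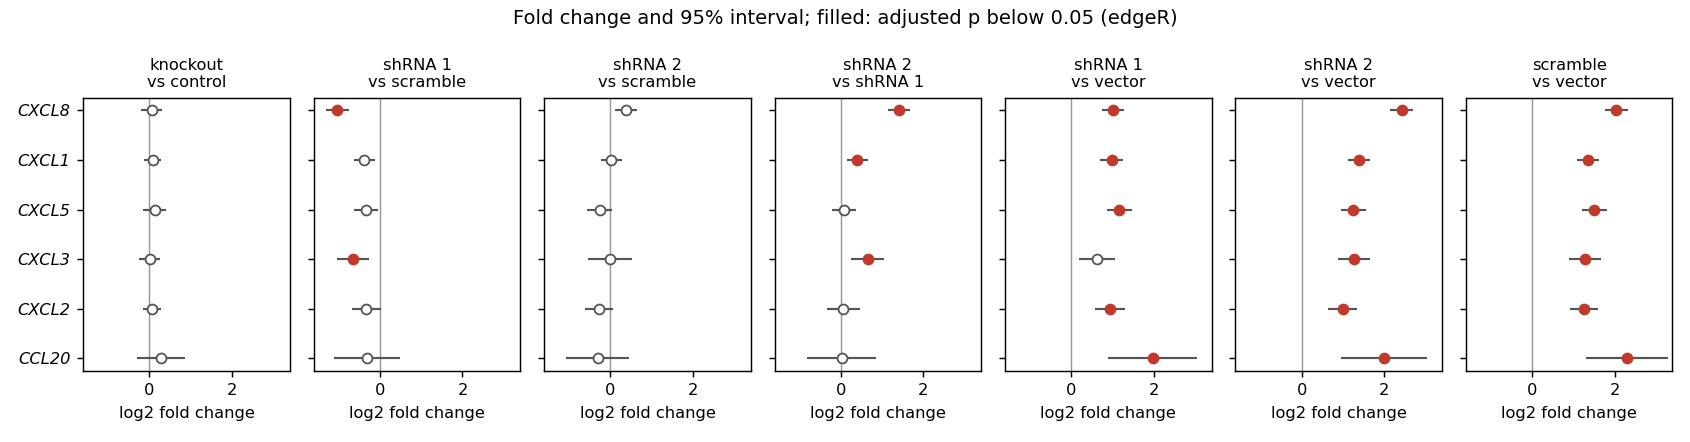
log2 fold change (x axis) of the 6 tested genes in 7 comparisons, with 95% intervals; filled points passed edgeR's test at an adjusted p below 0.05 and open points did not. All 6 lie near 0 in the knockout and above 0 in scramble against vector, and CXCL8 lies at -1.03 with shRNA 1 and 0.38 with shRNA 2 against scramble.

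The effect of the knockout was compared with the mean effect of both hairpins against scramble. The difference passed edgeR's test for 0 of 6 genes (DESeq2 also 0), beside 1.1% of all tested genes, and 3 genes, CXCL2, CXCL5 and CXCL8, had an unadjusted p below 0.05. The differences were 0.43 for CXCL5 (95% interval 0.05 to 0.80), 0.38 for CXCL8 (0.04 to 0.72), 0.36 for CXCL2 (0.02 to 0.71), 0.34 for CXCL3 (-0.07 to 0.75), 0.26 for CXCL1 (-0.04 to 0.55) and 0.59 for CCL20 (-0.30 to 1.47), positive where the knockout effect was the higher.

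The 5 tested CXC genes were also higher in the knockout control than in either control of the knockdown arm. This comparison was added after the data were seen. Between control groups that all carry mutant p53 by label, CXCL1 was 29.8-fold higher in the knockout control than in scramble (log2 4.89, SE 0.11) and 76.4-fold higher than in vector (log2 6.26, SE 0.12), where it ranked 7 by fold change among 13365 genes. Against scramble, CXCL3 was 11.1-fold, CXCL5 7.52-fold, CXCL2 7.26-fold and CXCL8 5.63-fold higher, and CCL20 did not pass (1.62-fold, adjusted p 0.0643 by edgeR). Thus 5 of 6 genes were higher than in scramble, beside 33.1% of all tested genes (64.6% in either direction), and 6 of 6 were higher than in vector, beside 32% (62.5% in either direction). Together the 8 genes took 0.232 to 0.305% of all counts in the knockout arm, 0.0295 to 0.0305% in scramble and 0.00851 to 0.00901% in vector. The arms differ in doxycycline, in the construct and in anything else not labelled, which cannot be told apart; the summed fibroblast markers were lower in the knockout arm, and their part in the chemokine levels was not tested.

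The receptors of these chemokines were at or near 0 in the same libraries. CXCR1, CXCR2 and CCR2 had 0 counts in all 12 libraries and CCR6 had 0 or 1, so ligand RNA was measured here without detectable receptor RNA. Of 22 chemokine receptors listed, 3 were tested. One of them, ACKR3, an atypical receptor that binds and removes CXCL12, rose with shRNA 1 against scramble, from 10.9 ± 0.177 to 19.3 ± 1.35 CPM (n = 2; log2 0.83, SE 0.14, adjusted p 0.00475 by edgeR), where CXCL8 fell. Against vector ACKR3 was 0.50 higher with shRNA 1 (adjusted p 0.036), as CXCL8 was, and at -0.45 with shRNA 2 (adjusted p 0.0464). In the knockout arm, where the CXC genes were high, ACKR3 was 1.30 ± 0.0318 and 1.72 ± 0.339 CPM in the control and the knockout.

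Other chemokines were scarce. Of 11 further CXC genes 1 was tested, CXCL16, and of 25 further CC, XC and CX3C genes 1 was tested, XCL1. CXCL16 had 11 to 28 counts per library and XCL1 had 3 to 19, and neither passed in any of the 7 comparisons within the arms. The neighbours PF4, PF4V1 and PPBP, which lie among the 6 CXC genes on chromosome 4, had 0 counts in every library, as against 70621 counts in all for CXCL8.

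Among the cytokines that induce chemokines, IL1A and IL1B fell with shRNA 1 against scramble, as CXCL8 did. In that comparison 4 of 19 tested upstream cytokines, receptors and adaptors fell and 1 rose, with a median of 0.03, beside 5.01% of all tested genes lower and 9.41% called in either direction. The 1 that rose was IL1RAP, a subunit of the interleukin 1 receptor, by 1.28 (adjusted p 4.82e-04 by edgeR), and it was at -0.68 in scramble against vector (adjusted p 0.00926). IL1A fell by 1.68 on the log2 scale (SE 0.10, adjusted p 5.61e-06 by edgeR), from 46.2 ± 1.09 to 14.4 ± 0.120 CPM (n = 2). IL1B fell by 1.07 (adjusted p 3.09e-04 by edgeR). IRAK2, an adaptor kinase of the interleukin 1 receptor, fell by 1.05 (adjusted p 2.61e-04 by edgeR). IL1RN, which encodes the receptor's natural antagonist, fell by 1.14 (adjusted p 6.72e-04 by edgeR). With shRNA 2 against scramble, IL1B was at 0.39 (adjusted p 0.0559), and IL1A fell by 0.50 (adjusted p 0.00719), where CXCL8 was at 0.38. In scramble against vector IL1A and IL1B were higher by 2.95 and 2.80. TNF had 1 to 7 counts per library and IL17A had 0, and neither was tested.

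In the knockout control relative to scramble, IL1A was at 0.49 on the log2 scale (adjusted p 4.95e-04 by edgeR) and IL1B at -0.29 (adjusted p 0.038). IL1B was 155 ± 22.7 CPM in the knockout control and 190 ± 7.82 CPM in scramble (n = 2), where CXCL1 differed 29.8-fold in the other direction. IL1A was 64.7 ± 1.67 and 46.2 ± 1.09 CPM in the same groups. Vector had 5.94 ± 0.514 CPM of IL1A and 27.4 ± 2.77 CPM of IL1B (n = 2), so the knockout control was higher than vector by 3.44 and 2.5 on the log2 scale (adjusted p 1.52e-09 and 2.32e-08 by edgeR).

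NF-kB subunits, inhibitors and kinases were all measured, with 17 of 17 tested. With shRNA 1 against scramble 7 fell and 0 rose (median -0.38), with shRNA 2 against scramble 1 fell, and in the knockout 0 were called. Of all tested genes 5.01% were lower with shRNA 1 and 7.74% were called with shRNA 2, so 1 of 17 is near the overall share. NFKBIA, which holds NF-kB in the cytoplasm and is itself induced by it, fell by 0.72 with shRNA 1 (adjusted p 0.0038 by edgeR), NFKB2 by 0.49 (adjusted p 0.0161) and TNFAIP3, a feedback inhibitor, by 0.41 (adjusted p 0.00927). The 1 that fell with shRNA 2 was the kinase gene CHUK, by 0.65 (adjusted p 0.0099). In scramble against vector 9 were higher and 0 lower (median 0.52; 7.1% of all tested genes higher), and between shRNA 2 and shRNA 1 9 were higher and 1 lower (median 0.40; 7.21% higher). The medians over all tested genes lay between -0.01 and 0.00 in these comparisons. In the knockout control against scramble 6 of the 17 were higher and 7 lower (median -0.16, beside 0.02 over all tested genes). Of all tested genes 33.1% were higher there and 64.6% were called in either direction. NFKBIA (-0.48), NFKB2 (-0.81) and TNFAIP3 (-1.12) were among those lower, where the CXC genes were higher.

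Of 10 tested AP-1 and C/EBP factors, 1 was lower and 0 higher with shRNA 1 than in scramble (9.41% of all tested genes called), and 2 were higher and 1 lower in scramble than in vector (15.3% called). CEBPB, a partner of NF-kB at inflammatory promoters, was 0.46 higher with shRNA 2 than in scramble (adjusted p 0.0113 by edgeR) and 0.34 higher in scramble than in vector (adjusted p 0.0267). FOSL2 was 0.55 lower in scramble than in vector (adjusted p 0.00126), opposite to the chemokines. In the knockout control against scramble 3 of the 10 were higher and 5 lower (median -0.46). Of all tested genes 33.1% were higher there and 64.6% were called in either direction. JUN was 329 ± 32.5 CPM in the knockout control and 106 ± 2.53 CPM in scramble (n = 2). CEBPB went the other way, at 143 ± 1.42 CPM in the knockout control and 346 ± 18.3 CPM in scramble (n = 2).

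Of 7 factors that act on chemokine mRNA stability, all tested, 2 fell with shRNA 1 against scramble and 1 with shRNA 2 (9.41% and 7.74% of all tested genes called). ZC3H12A, whose product is an RNase that degrades inflammatory mRNAs, fell by 0.48 with shRNA 1 (adjusted p 0.0374 by edgeR) and was 1.0 higher in scramble than in vector (adjusted p 3.61e-04).

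Of 10 other inflammatory cytokines tested, 4 were lower with shRNA 1 than in scramble (5.01% of all tested genes lower) and 6 were higher in scramble than in vector (7.1% higher). IL24 fell by 2.22 with shRNA 1 (adjusted p 5.89e-06 by edgeR) and by 0.76 with shRNA 2 (adjusted p 0.00391). IL6 fell by 1.02 with shRNA 1 (adjusted p 9.93e-04) and had a value of -0.15 with shRNA 2 (adjusted p 0.555). IL11 was at 0.02 with shRNA 1 and was 0.42 higher with shRNA 2 (adjusted p 0.0411).

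**Figure D4:**
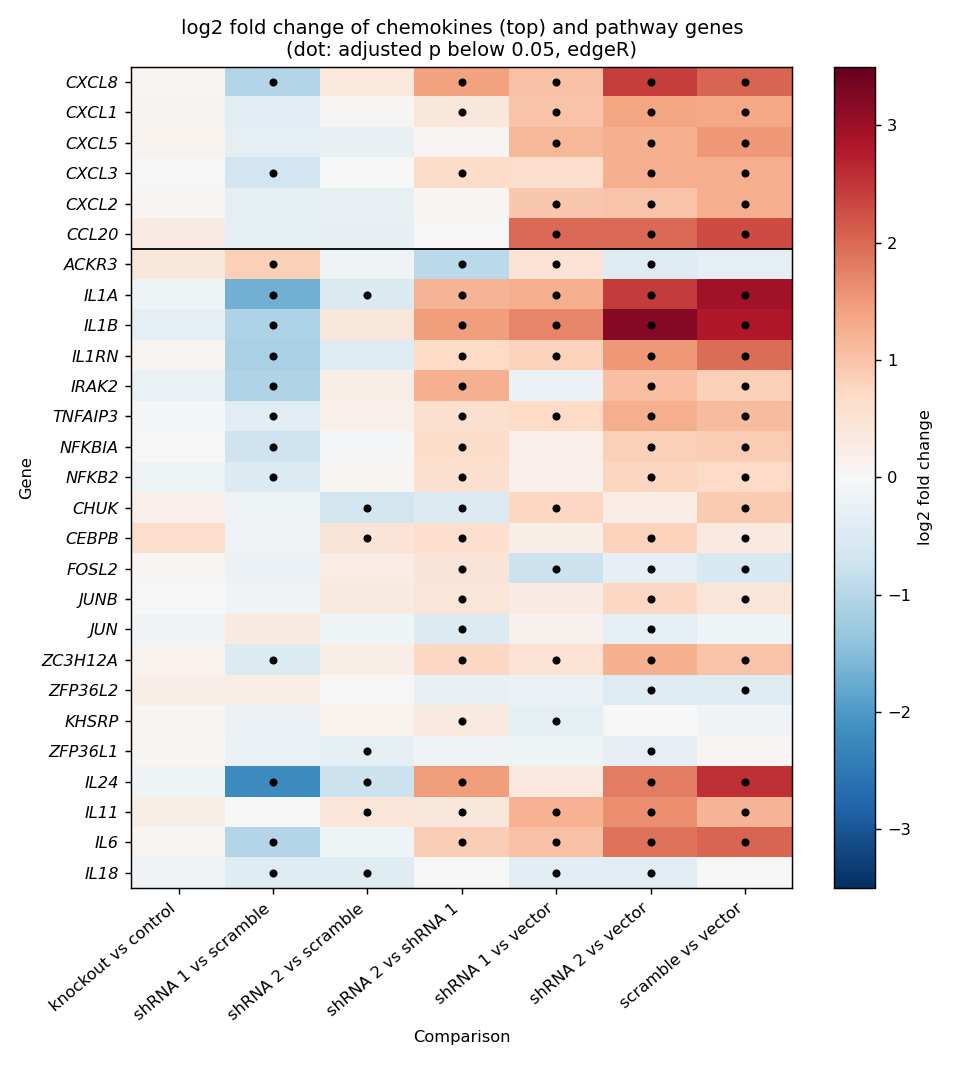
log2 fold change, as colour, of the 6 tested chemokine genes (above the line) and 21 pathway genes in 7 comparisons; dots mark an adjusted p below 0.05 by edgeR. The knockout column has no dot, and CXCL8, IL1A, IL1B and IL6 are all below 0 with shRNA 1 against scramble and above 0 in scramble against vector.

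The genes whose level followed the 6 chemokines most closely over the 12 libraries were C3, HSPA8, TRAF3, NIPA2, HSPH1 and CSTF3, of 10657 candidates. The measure was Pearson's r between log2 CPM and the mean standardised profile of the 6 genes, which is a description over libraries that fall into 2 arms. It was 0.996 for C3, the central complement component, 0.991 for the chaperone gene HSPA8 and 0.991 for TRAF3, and 0.986 to 0.987 for the other 3. Over the 8 knockdown libraries alone, which were among those used to choose the genes, C3 had an r of 0.978. In those libraries r was 0.966 for HSPA8, 0.944 for HSPH1, 0.932 for NIPA2, 0.930 for TRAF3 and 0.899 for CSTF3. C3 stood at 381 ± 12.1 CPM in the knockout control, 46.2 ± 1.91 CPM in scramble, 32.0 ± 5.06 CPM with shRNA 1, 35.9 ± 3.80 CPM with shRNA 2 and 13.6 ± 0.217 CPM in vector (n = 2 each).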

How the data were processed

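Reads were demultiplexed and aligned by the authors; bcl2fastq, STAR 2.5 and the build hg19 are named in the submitters' processing notes, while the annotation, strand setting and counting rule were not given in the sources. Libraries were made from total RNA with a Kapa mRNA kit, per the labels' protocols. The authors deposited raw counts per gene symbol for all 12 libraries, and all columns were used. Genes were kept by filterByExpr (minimum count 10; 13365 of 25435), normalised by TMM and fitted over all 6 groups with edgeR 4.0.16 in R 4.3.3 (limma 3.58.1), leaving 6 residual degrees of freedom. Two-sided quasi-likelihood p-values were corrected by the Benjamini-Hochberg method across every tested gene, with 0.05 as the limit for a call. Standard errors and 95% intervals were derived from those p-values. The procedure was run on simulated counts with the same spread for all genes and libraries. The arms differ in spread, so that run cannot show how the test performs on these data. The members and the gene lists were chosen with earlier results of these data known. Of 161 list entries in 13 lists, 160 matched. Up to 4 genes per list were named, those called in most of 7 comparisons, then by smallest adjusted p; marker genes and scarce or absent list members named beside them were chosen for their role. The 6 most similar genes had at least 5 CPM in a group. The targeted gene is not reported here. Alternatives were DESeq2 1.42.0, RLE normalisation, no filter, the libraries of one arm alone, a replicate block and leaving out each library. Promoters and motifs were read with Python 3.11.15, and coordinates are GRCh38.p14, not the authors' build. Counting intervals and floors cover counting error only.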

Additional observations from a re-analysis of the deposited data

Results flagged for a closer look

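The effects of the 2 hairpins against the same scramble libraries differed, by the direct test between them, for 3 chemokine genes: by 1.41 on the log2 scale for CXCL8, 0.65 for CXCL3 and 0.40 for CXCL1, each higher with shRNA 2 (edgeR, n = 2 libraries a group). Because both effects use the same scramble libraries, the difference is that between the hairpin groups themselves. CXCL8 was the 1 gene of the 3 whose 2 effects lay on opposite sides of 0 with neither interval reaching it. These intervals are not adjusted for the number of genes, and its shRNA 2 effect was not called (adjusted p 0.0788 by edgeR). CXCL3 and CXCL1 lost their calls between the hairpins in each fit that left out 1 library.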

How the results depend on the processing

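Depth limits CCL2, CXCL6 and CCL20, and 2 libraries a group limit every comparison. Of the single-gene values, 14 changed sign under an alternative, none of them called in the analysis as reported, 11 gained a call, 21 lost one, and 193 uncalled and 265 called values kept direction and call. The number of chemokine genes called in the knockout was 0 under DESeq2, RLE, no filter, the knockout arm alone and the replicate block, and 0 to 2 when 1 library was left out. With shRNA 1 against scramble it was 2, against 4 in the knockdown arm alone, 1 with the replicate block and 1 to 2 with 1 library left out. With shRNA 2 against scramble it was 0, against 1 with no filter (CXCL8) and 2 in the knockdown arm alone. Between the hairpins it was 3, against 2 by DESeq2, 1 with the replicate block and 1 in each fit with 1 library left out. The other counts of chemokine genes stayed within 1.5 times. Over all genes, the knockdown arm alone called 4304 with shRNA 1 and 4091 with shRNA 2 against scramble, where 1258 and 1034 were called in the full fit, and in the knockout DESeq2 called 23, no filter 64, the arm alone 0 and leaving out 1 library 1 to 4135 (the last without knockout control replicate 2), where 2 were called. The cause was not tested.

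Sign changes with 1 library left out spanned, in the knockout, -0.12 to 0.11 for CXCL3, -0.10 to 0.40 for CXCL5, -0.15 to 0.29 for CXCL8 and -0.022 to 0.72 for CCL20. With shRNA 2 against scramble they spanned -0.089 to 0.13 for CXCL1 and -0.21 to 0.22 for CXCL3, which was also 0.0023 by DESeq2, 0.0026 with RLE and 6.9e-04 in the knockdown arm alone. Between the hairpins CCL20 spanned -0.070 to 0.10. Replicate numbers in the labels did not pair the libraries: deviations of same-numbered libraries correlated at -0.469 in the knockout and between -0.04 and 0.00 elsewhere. With the numbers crossed in the knockout arm, an alternative added after seeing the data, 0 chemokine genes and 624 genes in all were called.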
